A study of Mus musculus with 4 samples.

Results

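This section describes 903 nuclei chosen by a rule for meningeal and perivascular fibroblasts. They were 1.15% of the 78728 nuclei of the mouse brain measured by single-nucleus RNA sequencing. A nucleus was counted as a fibroblast nucleus when it held at least 5 unique molecular identifiers (UMIs, counted RNA molecules) summed over Slc6a13, Ranbp3l, Bnc2, Colec12, Dcn, Slc47a1 and Cped1. It also had to stay within upper limits of 1 UMI for osteoblast genes (Bglap and Bglap2), 2 UMIs for endothelial genes (Flt1, Cldn5 and Adgrl4), 1 UMI for smooth muscle genes (Myh11 and Acta2), 1 UMI for neuronal genes (Rbfox3, Slc17a7, Slc17a6, Gad1 and Gad2) and 1 UMI for genes of glia and microglia (Mog, Aqp4 and Csf1r). The nuclei were therefore chosen by measured values of these genes, and levels of the 7 positive genes are given below as a description only.

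The study set mice that received AAV-VEGF-C, an adeno-associated virus of serotype AAV9 carrying full-length mouse VEGF-C, beside mice that received AAV-CTRL, a virus of the same serotype carrying a soluble part of VEGFR3 that does not bind VEGF-C. VEGF-C is the growth factor that drives the growth of lymphatic vessels through VEGFR3. All animals were male C57BL/6J mice injected into the cisterna magna at 4 weeks of age, and their brains were taken at 8 weeks. The brains of 5 mice per virus were pooled, and 1 library was made per virus from tissue labelled cortex and 1 from tissue labelled striatum, so that each of the 4 groups holds 1 library and both libraries of a virus come from the same mice. With 1 library per group there is no replicate check and no test between groups. Intervals below are 95% intervals (exact Clopper-Pearson for a share, exact Poisson for a level, exact conditional binomial for a ratio) and cover counting error only.

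Fibroblasts of the brain's coverings form layers. Dural fibroblasts lie under the skull, arachnoid cells are joined by tight and adherens junctions into the barrier between dura and cerebrospinal fluid, and pial and perivascular fibroblasts lie against the brain surface and along larger vessels, where they deposit collagens and basement membrane. These cells also carry many transporters of solutes and are a source of retinoic acid, bone morphogenetic proteins and Wnt ligands.

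Where 4 values stand together, the pair labelled cortex comes before the pair labelled striatum, and within each pair AAV-CTRL comes before AAV-VEGF-C. The fibroblast nuclei numbered 133 of 17168, 115 of 20370, 492 of 23724 and 163 of 17466 nuclei. Their summed UMIs were 271504, 241467, 1145568 and 456198, and the median per fibroblast nucleus was 1841, 1790, 1976 and 2367 UMIs. The share of UMIs from mitochondrial genes was 1.83%, 2.52%, 2.18% and 2.52% in fibroblast nuclei and 0.717%, 0.962%, 0.890% and 1.11% in all other nuclei. Libraries shared 76 to 118 cell barcodes per pair, and no barcode of a fibroblast nucleus was among them. Marker genes went against the striatum label: over all nuclei, Ppp1r1b, which striatal projection neurons express, stood at 62.6, 74.8, 18.1 and 18.1 CPM (UMIs of the gene per 1000000 UMIs), whereas Oxt, the hypothalamic oxytocin gene, stood at 0.317, 3.38, 126 and 83.2 CPM. The tissue names below are therefore labels only.

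The fibroblast nuclei took 0.775% (0.649 to 0.917) of the nuclei of the library labelled cortex AAV-CTRL, 0.565% (0.466 to 0.677) of cortex AAV-VEGF-C, 2.07% (1.90 to 2.26) of striatum AAV-CTRL and 0.933% (0.796 to 1.09) of striatum AAV-VEGF-C. The library labelled striatum AAV-CTRL stood above the other 3, whose shares lay below 1%, and its interval did not touch theirs. Between the viruses, the log2 ratio of shares (AAV-VEGF-C over AAV-CTRL) was -0.46 (-0.83 to -0.09) under the cortex label and -1.15 (-1.42 to -0.89) under the striatum label. Between the tissue labels, the log2 ratio (striatum over cortex) was 1.42 (1.14 to 1.71) for AAV-CTRL and 0.73 (0.37 to 1.08) for AAV-VEGF-C. After each nucleus was thinned to 1000 UMIs, the shares were 0.829%, 0.549%, 1.83% and 0.962%, and the log2 ratios between viruses were -0.59 and -0.92. A difference between the viruses and a difference between the 2 pools of mice or their libraries cannot be told apart.

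**Figure D1:**
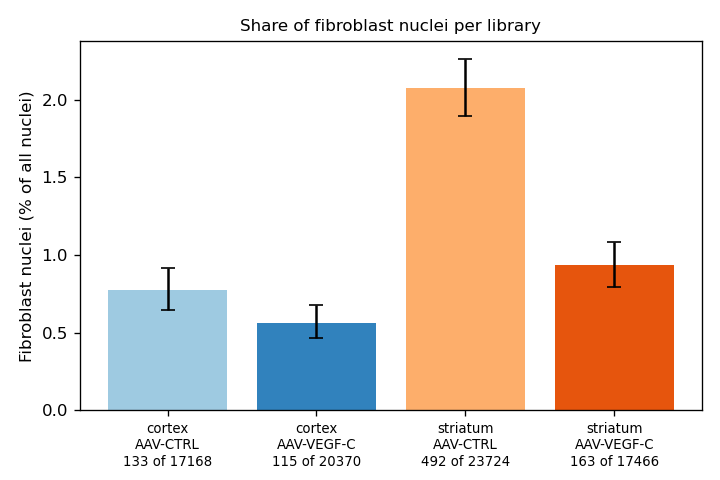
Share of fibroblast nuclei among all nuclei (%, vertical axis) in the 4 libraries, with exact 95% binomial intervals as bars and the counts under each library. The library labelled striatum AAV-CTRL holds 2.07%, and the other 3 lie between 0.565% and 0.933%.

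The upper limits shaped this set. Of the 2320 nuclei with at least 5 UMIs of the 7 positive genes, the limits removed 1417, or 64.0%, 67.9%, 54.4% and 68.3% per library. Removed nuclei were deeper, with medians of 2763.5, 3817, 4324 and 5854 UMIs. Without the limits the shares were 2.15%, 1.76%, 4.55% and 2.94%, and the log2 ratio between viruses under the striatum label was -0.63. At the threshold, fibroblast genes outside the rule were summed without Ptgds, the most abundant of them. The 13, 16, 52 and 17 fibroblast nuclei with exactly 5 positive UMIs carried 4726, 5227, 3410 and 5269 CPM of these genes. The 25, 17, 59 and 25 nuclei just outside, with 4 positive UMIs, carried 3698, 3931, 2814 and 1622 CPM of them.

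The 7 positive genes summed to 5845, 5458, 5506 and 5395 CPM in the fibroblast nuclei and to 92.8, 82.5, 190 and 159 CPM in all other nuclei. Slc6a13 on chromosome 6 (121300227 to 121337733, mm10, GENCODE gene ENSMUSG00000030108), which encodes a carrier of GABA and taurine, stood at 449, 406, 416 and 386 CPM. Ranbp3l on chromosome 15 (8967949 to 9067335) stood at 1035, 754, 1364 and 1085 CPM. Slc47a1 on chromosome 11 (61343401 to 61378345), which encodes an exporter of organic cations, stood at 464, 708, 398 and 660 CPM. Dcn on chromosome 10 (97479609 to 97518143), the proteoglycan decorin, stood at 438, 311, 531 and 530 CPM. Bnc2, a zinc finger factor of fibroblasts, stood at 1204, 1143, 990 and 1114 CPM, Colec12, a scavenger receptor, at 593, 629, 637 and 544 CPM, and Cped1 at 1661, 1507, 1171 and 1076 CPM.

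The label was described with 20 fibroblast genes that the rule did not use, a list written with earlier results of these data known. Nuclei were picked by genes that vary together with such genes, so the values are no independent check. All 20 stood at least 2-fold above all other nuclei, where 13.5% of the genes with at least 50 UMIs in fibroblast nuclei did so, and their sum was 16294, 16205, 16488 and 19928 CPM in fibroblast nuclei against 634, 575, 1372 and 1602 CPM in the others. The most abundant of them was Ptgds (chromosome 2, 25466709 to 25470046), which encodes the prostaglandin D2 synthase secreted into cerebrospinal fluid, at 10972, 11053, 11016 and 14489 CPM. Bicc1, an RNA-binding protein, stood at 718, 588, 713 and 546 CPM. Of 10 endothelial genes, 8 stood at least 2-fold below all other nuclei and only Cdh5, the adherens junction cadherin of endothelium, stood 2-fold above them, at 88.4, 82.8, 95.1 and 116 CPM. None of 10 neuronal genes stood 2-fold above other nuclei. The rule itself capped genes of both lists. Astrocyte genes summed to 5479 to 6465 CPM against 2345 to 2803 CPM in other nuclei, with 3 of 10 at 2-fold above. Pericyte genes summed to 740 to 914 CPM against 242 to 362 CPM, with 3 of 10 above, while the pericyte marker Rgs5 stood at 36.8, 41.4, 27.1 and 46.0 CPM. Of 10 Schwann and ensheathing genes 5, of 10 osteoblast genes 4 and of 8 lymphatic endothelial genes 5 were 2-fold above other nuclei, and the part of other cells in these levels was not tested. Genes of dividing cells summed to between 0 and 18.4 CPM. Of the genes used by the rule, Slc47a1 was 97.1-fold, Bnc2 51.6-fold, Slc6a13 47.5-fold, Ranbp3l 47.0-fold, Cped1 44.4-fold and Dcn 26.9-fold above them.

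**Figure D2:**
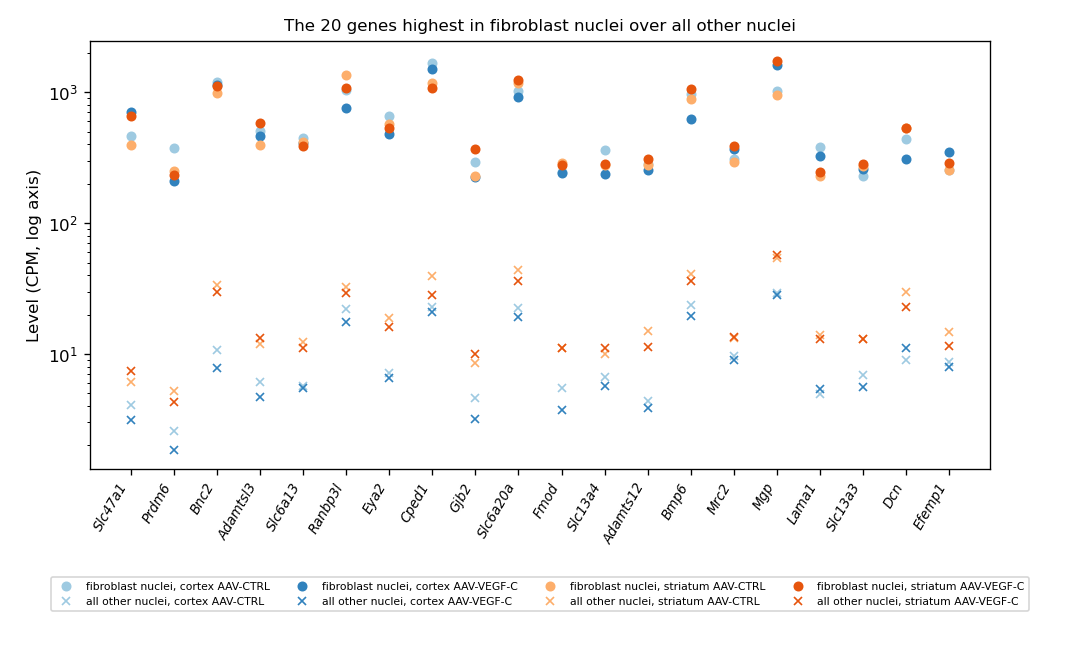
Levels (CPM, log axis) of the 20 genes with the highest ratio of fibroblast nuclei over all other nuclei, with circles for fibroblast nuclei and crosses for all other nuclei, coloured by library. Circles lie above the crosses for each gene and library, and the crosses are higher in the libraries labelled striatum for most genes.

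Among the genes that the rule did not use, Prdm6, a regulator of transcription, was 73.7-fold above all other nuclei. Adamtsl3, a secreted matrix protein, was 50.9-fold above all other nuclei, Eya2, a transcriptional coactivator, 45.7-fold, Gjb2, a gap junction protein, 41.1-fold, and Slc6a20a, a proline carrier, 37.3-fold. Bmp6, a bone morphogenetic protein, was 30.1-fold above them, Mgp, an inhibitor of calcification, 28.5-fold, and Lama1, a laminin chain of the pial basement membrane, 28.1-fold. Since nuclei were picked by genes that vary together with these, the folds describe the set and test nothing.

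Many matrix genes stood above other nuclei. Of 21 fibrillar and network collagen genes, 19 stood at least 2-fold above other nuclei, and the sum over the list ran from 2914 to 3249 CPM against 285 to 578 CPM. Col1a2 stood at 372, 456, 479 and 478 CPM, Col1a1 at 262, 286, 238 and 272 CPM and Col3a1 at 151, 112, 213 and 248 CPM. These chains form the fibrillar collagens I and III. Of 19 basement membrane genes 14 stood 2-fold above other nuclei. Lama2 stood at 512, 406, 612 and 493 CPM, Lama1 at 383, 323, 230 and 246 CPM, and Col4a6, a chain of collagen IV, at 192, 112, 155 and 162 CPM. Of 35 other matrix genes 31 passed 2-fold, among them Mgp at 1013, 1628, 945 and 1743 CPM and Fn1 (fibronectin) at 597, 683, 619 and 662 CPM.

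Many carriers of solutes did so too. Of 26 solute carriers 18 stood 2-fold above other nuclei, with a sum of 7896 to 9123 CPM against 1932 to 2136 CPM. Slc38a2, a carrier of neutral amino acids, stood at 1764, 1574, 1202 and 1572 CPM. Slc6a20a stood at 1024, 924, 1171 and 1236 CPM, Slc7a11, the cystine and glutamate exchanger, at 1245, 1143, 1131 and 1026 CPM, and Slc4a10, a bicarbonate carrier, at 1134, 1209, 849 and 1326 CPM. Of these 4 carriers, Slc7a11 had the narrowest range across libraries. Of 7 export pumps 5 passed 2-fold, with Abcg2 at 184, 211, 154 and 208 CPM.

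Signalling genes were spread over several families. Of 18 retinoid genes 14 stood 2-fold above other nuclei, including Aldh1a2, which makes retinoic acid, at 151, 145, 203 and 169 CPM (39.1-fold). Cyp26b1, which degrades retinoic acid, stood at 22.1, 41.4, 139 and 57.0 CPM and was highest in striatum AAV-CTRL. Of 27 genes of the BMP and TGF-beta family 17 passed 2-fold, led by Bmp6 at 976, 621, 888 and 1050 CPM. Of 20 Wnt genes 17 passed, with Rspo3, an enhancer of Wnt signalling, at 254, 323, 160 and 285 CPM and Wnt4 at 122, 137, 129 and 151 CPM. Of 10 genes of the IGF system 8 passed, with the binding protein Igfbp2 at 471, 551, 650 and 572 CPM. Of 36 transcription factors of the meninges 26 passed, led by Foxp1 (1179, 890, 857 and 1019 CPM), Foxp2 (648, 704, 686 and 776 CPM) and Eya2 (663, 480, 568 and 533 CPM).

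Of the family of the delivered factor, Vegfc and the gene of VEGFR3 were sparse in these nuclei. The 10 genes of the family summed to 560, 509, 593 and 603 CPM, against 426, 390, 500 and 464 CPM in all other nuclei. Vegfc itself was counted 8, 6, 49 and 9 times, or at 29.5, 24.8, 42.8 and 19.7 CPM, so that neither AAV-VEGF-C library was above its control. The log2 ratio (AAV-VEGF-C over AAV-CTRL) was -0.25 (-2.05 to 1.47) under the cortex label and -1.12 (-2.33 to -0.08) under the striatum label. Over all nuclei Vegfc stood at 12.2, 11.6, 12.9 and 12.1 CPM. Vegfc was highest in subcluster 4, described below, which held 47 nuclei of striatum AAV-CTRL and 2 of striatum AAV-VEGF-C. The part of this subcluster in the ratio was not tested. Whether the counts include RNA made from the virus was not tested either. The study reported more VEGF-C protein in cerebrospinal fluid and brain extracts after AAV-VEGF-C, and more Vegfc in smooth muscle cells. Flt4, which encodes VEGFR3, was counted 5 times in all, at 0, 8.28, 2.62 and 0 CPM. The co-receptors Nrp1 (258, 191, 234 and 274 CPM) and Nrp2 (84.7, 91.1, 116 and 94.3 CPM) were the most abundant members of the family. The lymphatic endothelial marker Lyve1 was counted 4 times in 903 nuclei, whereas Pdpn, which lymphatic endothelium and meningeal cells both express, stood at 95.8, 91.1, 79.4 and 76.7 CPM. Of 10 VEGF genes 4 stood 2-fold above other nuclei.

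Clustering of the 903 nuclei of the 4 libraries together gave 7 subclusters, numbered 0 to 6 by size, with 328, 209, 181, 62, 54, 42 and 27 nuclei. A subcluster took a layer name only where that layer's list stood at least 2-fold above the other fibroblast nuclei, at least 3 of its genes did so with a UMI in at least 10% of the nuclei, and at least 1 of its genes was among the 10 leading genes. The genes that led a subcluster were used to form it and are given as its description. Of the nuclei of each of the 7 subclusters, 94.3% to 100% fell into a single cluster again when the rule genes were left out of the clustering genes. At a finer resolution of 0.8, with 10 subclusters, only 39.6% of subcluster 0, 68.4% of subcluster 1 and 72.6% of subcluster 3 stayed in a single cluster. At a coarser resolution of 0.3, with 5 subclusters, 51 of the 54 nuclei of subcluster 4 and all 42 of subcluster 5 fell into the same cluster of 93 nuclei.

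Subcluster 0 was pial and perivascular-like. The pial and perivascular list stood at 5766 CPM, 2.94-fold above the other fibroblast nuclei, with 6 of its 10 genes past 2-fold. The pericyte list was further above the others, at 1630 CPM against 476 CPM (3.42-fold), with 3 of its 10 genes past 2-fold and none among the 10 leading genes. The leading genes were mainly matrix genes: Fbln2 (56.0-fold), Col15a1 (16.2-fold), Eln, which encodes elastin (9.1-fold), Lama1 (8.0-fold) and Col4a6 (7.6-fold). The basement membrane list summed to 4185 CPM in subcluster 0, against 977 CPM in subcluster 2. Lama1 stood at 726 CPM here and at 4.13 CPM in subcluster 2, and Slc7a11 stood at 2477 CPM and 55.8 CPM in the same order.

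Subcluster 1 met no layer's criterion and stays unnamed. It held the highest levels of several carriers among the 7 subclusters: Slc6a13 at 852 CPM, Slc6a20a at 2543 CPM, Slc22a8, an organic anion carrier, at 430 CPM, and Slc13a3, a carrier of dicarboxylates, at 661 CPM. Ranbp3l stood at 2774 CPM and Ptgds at 26118 CPM, each the highest of the 7 subclusters. Its leading genes were Gm16223 (13.5-fold), Rspo2 (13.0-fold), a Wnt enhancer, and Cyp26b1 (10.9-fold, 337 CPM). The pial list stood at 3705 CPM, 1.32-fold above the others. At the resolution of 0.3, all nuclei of subclusters 0 and 1 shared 1 cluster of 543 nuclei.

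Subcluster 2 was dural layer-like, with 8 of 10 dural genes past 2-fold and the list at 8681 CPM, 6.45-fold above the other fibroblast nuclei. Mgp stood at 3885 CPM, Foxp1 at 1990 CPM, Nov, a matricellular protein, at 1343 CPM and Fxyd5, a regulator of the sodium pump, at 779 CPM. The subcluster was led by carriers: Slco4a1 (39.8-fold), Slc47a1 (25.3-fold, 1922 CPM), Slc9b2 (23.3-fold) and Slc26a7 (21.9-fold, 794 CPM). Slc47a1 stands in the arachnoid list, and the arachnoid list was 2.22-fold above the others here too, with 2 of its genes past 2-fold. The solute carrier list summed to 12202 CPM, with Slc38a2 at 3961 CPM, Slc4a10 at 3548 CPM and Slc23a2, which takes up vitamin C, at 990 CPM. The collagen IV chain Col4a6 was near absent at 6.20 CPM.

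Subcluster 5 was arachnoid layer-like, with 3 of 10 arachnoid genes past 2-fold and the list 2.39-fold above the other fibroblast nuclei. The junction list summed to 6606 CPM against 2174 CPM in the others. Cdh1 (E-cadherin) stood at 844 CPM, Cldn11, a claudin of tight junctions, at 1419 CPM, and Tjp1, a tight junction scaffold, at 1199 CPM. Dpp4, a peptidase on the cell surface, stood at 717 CPM, and Cubn, an uptake receptor, led the subcluster at 47.9-fold. Fn1 reached 3754 CPM, its highest level among the 7 subclusters, and Mgp stood at 2207 CPM, second to subcluster 2.

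Subcluster 4 was led by Gm26870 (74.7-fold, with all 78 UMIs in 1 nucleus), Hpse2 (54.8-fold), Itga8 (44.8-fold), Dach1 (15.1-fold) and Runx2, a factor of bone-forming cells (8.2-fold), and stays unnamed. Dcn stood at 1597 CPM, Cped1 at 2485 CPM, Lama2 at 1409 CPM, Cdh11, a mesenchymal cadherin, at 1107 CPM and Vegfc at 177 CPM, the highest level of each among the 7 subclusters. Osteoblast genes summed to 585 CPM, 6.05-fold above the other fibroblast nuclei, and Alpl made up 470 CPM of it. Of its 54 nuclei, 47 came from striatum AAV-CTRL.

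Subclusters 3 and 6 carried genes of other cells. Subcluster 3 held 15429 CPM of neuronal genes, 5.46-fold above the other fibroblast nuclei, with Slc6a3, the dopamine transporter gene, and Adarb2 among its leading genes, and its median was 3944 UMIs. All nuclei outside the set held 15036, 14674, 14704 and 14226 CPM of neuronal genes. The 7 positive genes summed to 1925 CPM in subcluster 3, against 6072 CPM in the other fibroblast nuclei. These values go against a fibroblast name for subcluster 3, which is in the set by the rule alone. Subcluster 6 held 10132 CPM of oligodendrocyte genes, 6.18-fold above the others, led by Prr5l (43.1-fold) and St18 (38.2-fold). Choroid plexus genes were 6.39-fold above the others there, at 3000 CPM, and Schwann and ensheathing genes 4.82-fold, at 5208 CPM. The choroid plexus gene Ttr had 185 UMIs in subcluster 6, of which 177 lay in 1 nucleus. In subclusters 3 and 6, 88.7% and 100% of the nuclei had a UMI of a fibroblast gene outside the rule other than Ptgds. Of all other nuclei, 39.9%, 39.4%, 63.8% and 64.8% had such a UMI. These shares were not matched for depth. The medians of subclusters 3 and 6 were 3944 and 3447 UMIs, against 2622.5, 2873, 2272 and 2647 UMIs over all nuclei. Subcluster 3 had the lowest share of the 7 subclusters. The list of 20 such genes, with Ptgds, stood at 4330 CPM in subcluster 3 against 19142 CPM in the other fibroblast nuclei. In subcluster 6 the list stood at 18710 CPM against 17101 CPM. Scrublet, which scores how much a nucleus looks like a mixture of others, called 21 of the 62 nuclei of subcluster 3 and 9 of the 27 of subcluster 6 doublets, against at most 3 in any other subcluster. Without subclusters 3 and 6, 814 fibroblast nuclei remain.

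**Figure D3:**
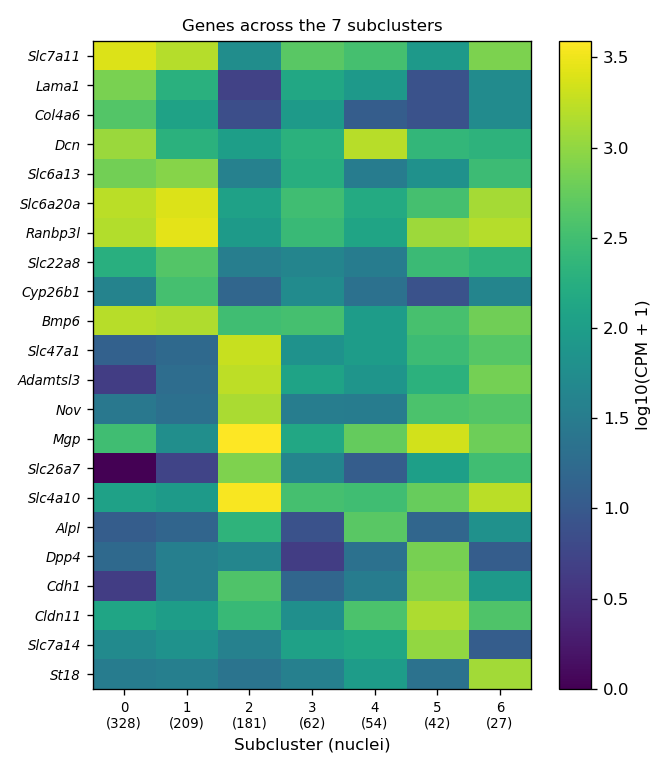
Level of 22 genes, as log10(CPM + 1) on the colour scale, in the 7 subclusters of fibroblast nuclei, with the number of nuclei in parentheses. Slc7a11, Lama1 and Col4a6 are brightest in subcluster 0, Slc6a20a and Ranbp3l in subcluster 1, Slc47a1 to Slc4a10 in subcluster 2, and Dpp4, Cdh1 and Cldn11 in subcluster 5.

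All 7 subclusters held nuclei of all 4 libraries. Subcluster 0 took 46.6%, 43.5%, 31.5% and 37.4% of the fibroblast nuclei of a library, subcluster 1 took 19.5%, 18.3%, 25.2% and 23.3%, and subcluster 2 took 22.6%, 27.0%, 16.3% and 24.5%. Subcluster 5 held 6, 5, 26 and 5 nuclei. Subcluster 4 held 3, 2, 47 and 2 nuclei and took 9.55% (7.10 to 12.5) of the fibroblast nuclei of striatum AAV-CTRL against 1.23% (0.149 to 4.36) of striatum AAV-VEGF-C. The shares of subcluster 2 are given as a description only, because genes that define it also differed between libraries within it, as given below.

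**Figure D4:**
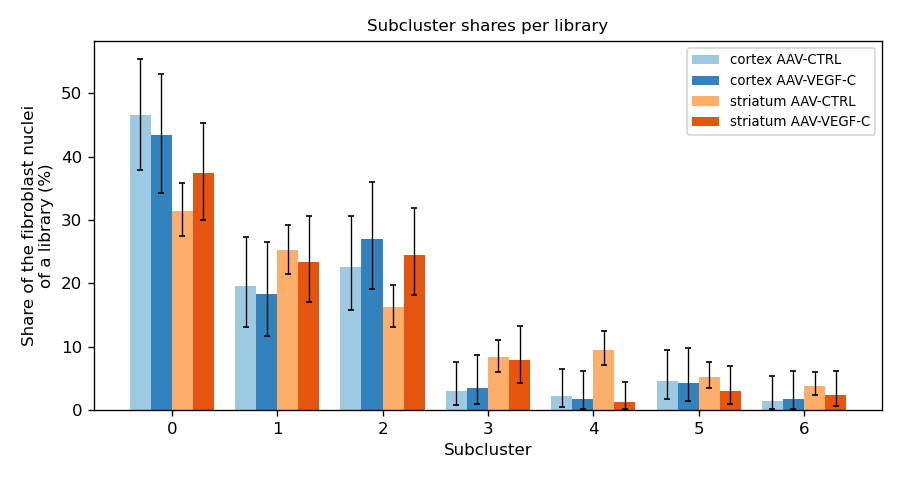
Share of each library's fibroblast nuclei (%, vertical axis) in subclusters 0 to 6, with exact 95% binomial intervals. Subcluster 4 stands at 9.55% in striatum AAV-CTRL and below 3% in the other 3 libraries.

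The comparison of the viruses described how gene levels in these nuclei differed between the AAV-VEGF-C and AAV-CTRL libraries of each tissue label. Few genes passed 2-fold. Under the cortex label, 2448 genes had at least 50 UMIs in the fibroblast nuclei of both libraries together, of which 10 (0.408%) were 2-fold higher in AAV-VEGF-C and 18 (0.735%) 2-fold lower. Under the striatum label, 30 (0.435%) of 6896 genes were 2-fold higher and 91 (1.32%) 2-fold lower. Among the 2437 genes with that minimum under both labels, 0 passed 2-fold the same way under both and 0 passed it in opposite ways. These counts describe pairs of libraries, and no test was possible.

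The medians of most gene lists between the viruses lay near the median over all genes, which was 0.01 under the cortex label and -0.02 under the striatum label on the log2 scale. The medians were 0.01 and 0.09 for fibroblast genes outside the rule, 0.12 and 0.03 for collagens, -0.27 and 0.19 for basement membrane genes, 0.05 and 0.12 for solute carriers, and -0.15 and 0.09 for BMP and TGF-beta genes. For these 5 lists 0 genes passed 2-fold in either direction. Under the striatum label, the listed genes past 2-fold outside markers of other cells were Igfbp3 (1.33), which binds insulin-like growth factors, and Stra6 (1.16), a retinol uptake receptor, on the higher side, and Meis2 (-1.37), Cyp26b1 (-1.28), Loxl1 (-1.15), Vegfc (-1.12) and Il18 (-1.02) on the lower side. The dural list had the highest median of the layer lists, at 0.42 over 5 genes and 0.43 over 7 genes, with 0 genes past 2-fold. With a minimum of 200 UMIs, the cortex-label median was -0.20 over 3 dural genes and 0.61 over 1 arachnoid gene, so under the cortex label neither the direction nor the order held. The arachnoid medians were -0.06 and 0.22, with 1 gene lower under the cortex label (Dpp4), and the pial medians were -0.12 and 0.10. Summed over the list, the log2 ratio of dural genes was 0.20 (0.06 to 0.33) under the cortex label and 0.54 (0.45 to 0.62) under the striatum label. The share of the dural layer-like subcluster 2 in each library is given above, and its part in these sums was not tested.

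**Figure D5:**
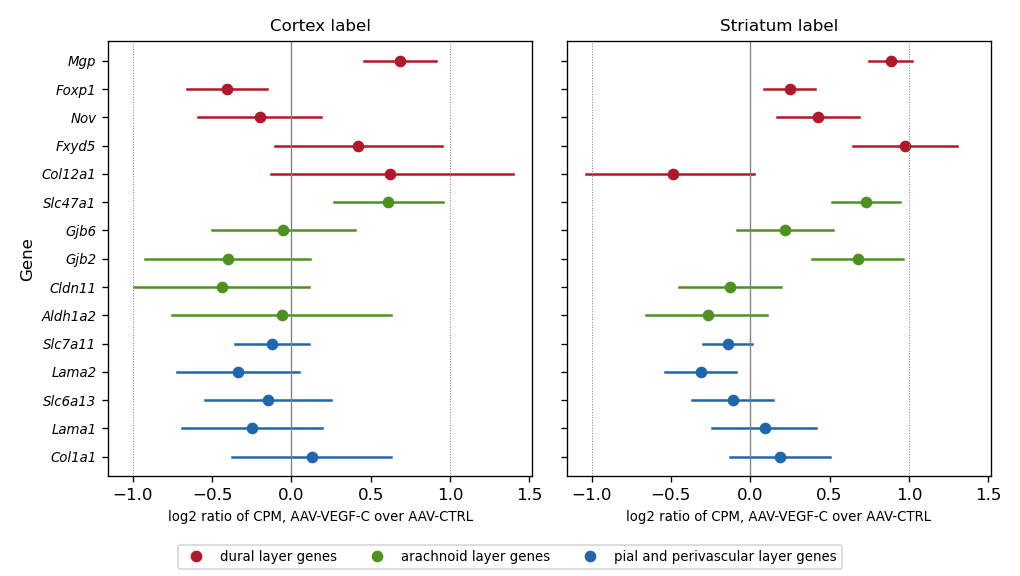
Log2 ratio of CPM (AAV-VEGF-C over AAV-CTRL, horizontal axis) of the 5 genes with most UMIs in each layer list, with exact 95% intervals for counting error as lines, under the cortex label (left) and the striatum label (right); dotted lines mark 2-fold. Mgp lies above 0 under both labels, Slc47a1 and Slc6a13 were used to choose the nuclei and are shown as a description, and the other genes lie on either side of 0 or have intervals that reach it under at least 1 label.

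Mgp had the most UMIs of the dural list. The gene (chromosome 6, 136872435 to 136875823) stood at 1013 and 1628 CPM under the cortex label and at 945 and 1743 CPM under the striatum label, a log2 ratio of 0.68 (0.46 to 0.91) and 0.88 (0.75 to 1.02). All other nuclei gave -0.05 and 0.08 for the same gene. Within the dural layer-like subcluster 2, Mgp stood at 2940 and 4213 CPM and at 3432 and 4906 CPM, a log2 ratio of 0.52 (0.27 to 0.77) and 0.52 (0.36 to 0.67). Both AAV-VEGF-C libraries were therefore higher over all fibroblast nuclei and within the subcluster that held most Mgp.

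Several further genes, singled out after their values were seen, had intervals on the same side of 0 under both labels. How many of the 2437 genes with the minimum under both labels did so was not counted. Both libraries of a virus come from the same pool of mice, so the labels are not replicates of each other. Igfbp5 (chromosome 1, 72857932 to 72874884), a binding protein of insulin-like growth factors, stood at 350 and 675 CPM and at 509 and 824 CPM, a log2 ratio of 0.95 (0.57 to 1.33) and 0.70 (0.50 to 0.89), and all other nuclei gave 0.06 and 0.02. In subcluster 2 Igfbp5 stood at 971 and 1628 CPM and at 1177 and 1741 CPM. Slc26a2, a sulfate carrier, gave 0.61 (0.05 to 1.19) and 0.97 (0.61 to 1.33) over all, and 0.66 (0.04 to 1.29) and 0.53 (0.14 to 0.92) within subcluster 2. Abcc4, an export pump, gave 0.91 (0.19 to 1.65) and 0.76 (0.32 to 1.18), and Zic1, a transcription factor, 0.52 (0.00 to 1.03) and 0.47 (0.20 to 0.74).

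On the lower side, Eya1, a transcriptional coactivator, stood at 376 and 236 CPM and at 431 and 311 CPM, a log2 ratio of -0.67 (-1.16 to -0.19) and -0.47 (-0.75 to -0.20), while all other nuclei gave -0.12 and -1.04. Eya1 was thus also lower outside the fibroblast nuclei under the striatum label.

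Ptgds showed a difference that depended on the subcluster. Over all fibroblast nuclei its log2 ratio was 0.01 (-0.07 to 0.09) under the cortex label and 0.40 (0.35 to 0.44) under the striatum label, where all other nuclei gave 0.52. Within subcluster 2 Ptgds stood at 1914 and 5001 CPM and at 4366 and 8494 CPM, a log2 ratio of 1.39 (1.10 to 1.67) and 0.96 (0.83 to 1.09). Within subcluster 0 the log2 ratio was -0.29 (-0.46 to -0.13) and -0.05 (-0.14 to 0.04), and within subcluster 1 it was -0.15 (-0.26 to -0.03) and 0.51 (0.45 to 0.58). Ptgds was counted in 23 of 30 and 21 of 31 nuclei of subcluster 2 under the cortex label and in 60 of 80 and 31 of 40 under the striatum label. Free RNA of abundant transcripts was not measured apart from the nuclei, and its part in these values was not tested.

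Genes at the extremes of the virus comparison rested in part on single nuclei. Under the cortex label the highest ratio was that of Ttr, the transthyretin gene of choroid plexus, counted 33 times in AAV-CTRL and 236 times in AAV-VEGF-C, with 177 of the 236 UMIs in 1 nucleus of subcluster 6. The lowest was Adarb2, at 79 and 7 UMIs, with 71 of the 79 in 1 nucleus. Dpp4 was next at 39 and 11 UMIs (log2 ratio -1.66, interval -2.77 to -0.66), and its ratio was 0.11 (-0.56 to 0.74) under the striatum label. Others past 2-fold under the cortex label were Pak3 (1.28), Gdpd5 (1.20), Tlk1 (1.11), Galntl6 (-1.51), Wdfy3 (-1.44) and Ampd3 (-1.35).

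Under the striatum label the 7 highest ratios belonged to genes of neurons: Slc6a3 (2.37), Nwd2 (1.91), Slc18a2 (1.78), Oxt (1.69), Dlk1 (1.67), Ddc (1.59) and Kcnj6 (1.48). Of the 103 Slc6a3 UMIs in AAV-VEGF-C, 90 lay in 1 nucleus. At least 50% of the UMIs of the higher library lay in 1 nucleus for 10 of the 30 genes that were higher and for 1 of the 91 that were lower. Of these 7 genes, 6 had ratios below 0 once subclusters 3 and 6 were left out, Nwd2 being the exception. Rcn3, a calcium-binding protein of the endoplasmic reticulum, was next, with 40 UMIs in 32 nuclei against 44 UMIs in 36 nuclei (log2 ratio 1.47).

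Among the 10 lowest ratios under the striatum label were those of genes found mainly in different subclusters. Hpse2, an inactive relative of heparanase, was counted 51 times in AAV-CTRL and 0 times in AAV-VEGF-C, and was at least 6.77-fold lower when 0 was set to a limit of 3 UMIs in the library. The exact interval, which also covers counting error in the 51 UMIs, ended at a log2 ratio of -2.41. Of the 51 UMIs, 39 lay in 11 nuclei of subcluster 4. Dach1, a transcription factor, had 85 and 12 UMIs, of which 35 lay in subcluster 3 and 31 in subcluster 4 of AAV-CTRL. Slc35f4 had 51 and 7 UMIs, 41 of them in subcluster 3 of AAV-CTRL. Nkain4 had 54 and 6 UMIs, with 25 in subcluster 1 and none in subcluster 4 of AAV-CTRL. Gm26870 had 94 and 2 UMIs, with 78 of the 94 in 1 nucleus. Scgb1c1 was lower at -3.74, and lower still in all other nuclei, at -5.31.

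The comparison of tissue labels had more genes past 2-fold. In AAV-CTRL, 346 (5.45%) of 6353 genes were 2-fold higher under the striatum label and 139 (2.19%) 2-fold lower, and in AAV-VEGF-C 115 (3.37%) of 3415 genes were higher and 89 (2.61%) lower. Among the listed genes with at least 200 UMIs, the neuronal RNA Meg3 gave 1.69 and 1.87, against 0.45 and 0.47 in all other nuclei. Slc1a2, the glutamate transporter of astrocytes, gave -1.37 in AAV-VEGF-C, against -1.13 in all other nuclei. Meg3 and Slc1a2 had the sign they had in the remaining nuclei, but 320 of the 1114 Meg3 UMIs in striatum AAV-VEGF-C lay in 1 nucleus. Il1rapl1 gave 1.19 in AAV-CTRL, against 0.05 in all other nuclei. In AAV-CTRL, 3 of 10 neuronal genes with the minimum were 2-fold higher and 1 lower. Of 7 astrocyte genes there, 1 was higher and 0 lower. In AAV-VEGF-C, 1 of 5 neuronal genes was higher and 0 lower. Of 6 astrocyte genes there, 0 were higher and 1 lower. The part of RNA from other cells was not tested.

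Of the 19 fibroblast genes outside the rule that met the minimum, 0 passed 2-fold between tissue labels in AAV-CTRL, beside the 5.45% and 2.19% over all genes. In AAV-VEGF-C 1 of 19 was higher, which was Col3a1 at 1.15 (0.53 to 1.81), beside 3.37% over all genes. Among genes of the other lists in AAV-CTRL, Igfbp6, a binding protein of insulin-like growth factor 2, stood at 486 CPM under the cortex label and 241 CPM under the striatum label (log2 ratio -1.01, interval -1.32 to -0.70), and in AAV-VEGF-C at 518 and 458 CPM (-0.18, interval -0.50 to 0.16). Igfbp6 was also lower in all other nuclei, at -2.10 and -2.36. Tbx15, a T-box factor, stood at 350 and 164 CPM in AAV-CTRL (-1.09, interval -1.46 to -0.72) and at 257 and 246 CPM in AAV-VEGF-C, with -0.06 and 0.13 in all other nuclei. Ebf1, a factor of mesenchymal cells, was higher under the striatum label at 1.39 (0.87 to 1.95) and 1.00 (0.36 to 1.68), with 1.28 and 1.17 in all other nuclei, and was highest in subcluster 4 at 1075 CPM. Egr1, an immediate early gene, stood at 331, 236, 50.6 and 41.6 CPM in fibroblast nuclei and at 210, 204, 41.3 and 38.7 CPM in all other nuclei.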

How the data were processed

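The 4 libraries held deposited UMI counts per gene and nucleus that the authors made from 10x Genomics 3′ version 3 libraries with Cell Ranger (version 5.0.1 in the file headers, version 5.1.1 in the submitters' processing notes) against mm10. Counts were used as deposited, and every barcode in the files was kept. The authors' own later steps, with Seurat clusters and tests over nuclei, were not used. Nuclei were chosen by the rule given above. The nuclei and gene lists were chosen with earlier results of these data known, so the lists give no independent support. Counts of the chosen nuclei were summed per library and scaled to CPM without a length correction, since 3′ counts do not scale with length. Ratios were taken among genes with at least 50 UMIs in the 2 libraries compared, with exact intervals from SciPy 1.17.1 in Python 3.11.15. Subclusters came from scanpy 1.11.5 and leidenalg 0.10.2 (counts scaled to 10000 per nucleus, log transformed, 2000 variable genes, 30 components, 15 neighbours, resolution 0.5). The leading genes of a subcluster had at least 30 UMIs in it. Scrublet called 4.49%, 5.95%, 7.95% and 4.31% of the nuclei of the libraries as doublets (expected 8%), among them 2, 0, 31 and 2 fibroblast nuclei, which were kept.

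Named genes were the 7 rule genes, the 20 genes highest over other nuclei, the 10 highest and 10 lowest ratios of each virus comparison, listed genes past 2-fold under both labels or past 2-fold with at least 200 UMIs between tissue labels, and up to 5 genes with most UMIs per list. Genes named outside this rule, such as those of the subclusters and of the VEGF family, were chosen after their values were seen. Gene positions are those of GENCODE for mm10. No test between groups was run, because each group is 1 library. Alternatives were another rule minimum, no upper limits, thinning, called doublets left out, another UMI minimum per gene, centring on the median gene, each nucleus scaled first, and other clusterings. The alternatives without subclusters 3 and 6, without subcluster 4 and without the nucleus with most UMIs were chosen after seeing the data. The counting of ratios was tested on simulated data with independent counts per gene. The simulation left out the concentration of UMIs in single nuclei, so it does not show how the intervals behave there.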

Additional observations from a re-analysis of the deposited data

Results flagged for a closer look

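For Bmp6, Col25a1, Foxp1 and Il1rapl1, the virus comparison lay on opposite sides of 0 under the cortex and striatum labels. The intervals of these 4 genes, which are named in the lists, did not reach 0 but cover counting error only. The number of such genes among the 2437 with the minimum under both labels was not counted. Whether 4 is more than the background over all genes is therefore not known. The difference between labels was not tested, since each label holds 1 library per virus. Bmp6 had a log2 ratio of -0.65 (-0.95 to -0.36) under the cortex label and 0.24 (0.08 to 0.40) under the striatum label. It was lower under the cortex label within subcluster 0 (1437 and 981 CPM) and subcluster 1 (1295 and 782 CPM), and higher under the striatum label in both (1646 and 1967 CPM, and 1440 and 1788 CPM). Col25a1, a membrane collagen, had a log2 ratio of -0.50 (-0.77 to -0.23) and 0.47 (0.29 to 0.65), and within subcluster 2 it was -0.83 (-1.16 to -0.50) and -0.08 (-0.30 to 0.13). Foxp1 had -0.40 (-0.66 to -0.15) and 0.25 (0.09 to 0.41), and within subcluster 2 it was -0.68 (-1.03 to -0.33) and -0.12 (-0.35 to 0.11). Il1rapl1, an accessory protein of the interleukin receptor family that neurons express, had 1.07 (0.58 to 1.58) and -0.33 (-0.59 to -0.08), and 45 of its 101 UMIs in cortex AAV-VEGF-C lay in 1 nucleus.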

How the results depend on the processing

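Shares of fibroblast nuclei moved with the rule: with a minimum of 3 UMIs they were 1.07%, 0.761%, 2.68% and 1.32%, with 8 UMIs 0.571%, 0.383%, 1.57% and 0.716%, and with no upper limits 2.15%, 1.76%, 4.55% and 2.94%. The share of striatum AAV-CTRL was 1.83% after thinning, 1.82% without subclusters 3 and 6 and 1.88% without subcluster 4. The log2 ratios of shares kept their direction under the 7 alternatives, from -0.59 to -0.29 between viruses under the cortex label and from -1.13 to -0.63 under the striatum label, the latter with no upper limits, where it was -0.63. Between tissue labels in AAV-CTRL the ratio was 1.08 with no upper limits and 1.14 after thinning. Thinning left out 642, 709, 1537 and 425 nuclei.

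Counts of genes past 2-fold depended on the UMI minimum. With 20 UMIs, 165 genes were higher and 192 lower between viruses under the cortex label, 183 and 425 under the striatum label, 984 and 434 between tissue labels in AAV-CTRL, and 458 and 363 in AAV-VEGF-C. With 200 UMIs the same counts were 1 and 0, 2 and 5, 62 and 20, and 6 and 8. With each nucleus scaled first, 17 genes were higher under the cortex label. With a rule minimum of 8, 58 genes were higher between tissue labels in AAV-VEGF-C. Without subclusters 3 and 6, 18 genes were higher between viruses under the striatum label, 189 between tissue labels in AAV-CTRL and 59 in AAV-VEGF-C. Without the nucleus with most UMIs of each gene, 9 were higher and 148 lower under the striatum label, an alternative that weighs more on the library with fewer nuclei. With 200 UMIs the dural median under the cortex label was -0.20 over 3 genes and the arachnoid one 0.61 over 1 gene. The causes of these shifts beyond the number of genes or nuclei were not tested.

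Genes of neurons reversed between viruses under the striatum label. With a rule minimum of 8 the log2 ratios were -0.79 for Slc6a3, -0.64 for Slc18a2, -0.76 for Oxt, -1.06 for Dlk1, -0.49 for Ddc and -1.01 for Kcnj6. Without subclusters 3 and 6 they were -0.26 for Slc6a3, -0.65 for Slc18a2, -0.62 for Oxt, -0.45 for Dlk1, -0.48 for Ddc, -0.25 for Kcnj6 and -0.19 for Rorb. Without the nucleus with most UMIs they were -0.18 for Slc6a3, -0.32 for Slc18a2, -0.20 for Oxt and -0.14 for Kcnj6, and without called doublets Oxt was -0.49. Of the other ratios of named genes, 287 stayed near their value and 38 moved without a change of sign, and of the list medians 230 stayed near theirs.

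No paired analysis was possible because each group holds 1 library and the labels give no replicate numbers, and for the same reason no replicate could be left out. The 115 to 492 fibroblast nuclei per library limit the precision of each level, and the intervals given do not cover the spread between mice.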
